A study of Mus musculus with 12 samples.

Results

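The mitochondrial ribosomal proteins are the nuclear-encoded subunits of the ribosome inside mitochondria. Of the 45669 rows of the count table, 75 were members, taken as rows with a single Ensembl mouse identifier of a protein-coding gene whose symbol is Mrpl or Mrps followed by a number and an optional letter. They comprised 47 Mrpl and 28 Mrps genes. By where their proteins sit in the mammalian mitoribosome, 49 belong to the large subunit, which includes Mrps18a and Mrps30 in spite of their symbols. Another 25 belong to the small subunit, and Mrps36 is now known as a subunit of the 2-oxoglutarate dehydrogenase complex and stands apart. The annotation of the mouse genome (GENCODE vM21, GRCm38) lists 78 genes of this form. The remaining 3, Mrpl33, Mrpl53 and Mrps34, shared a joined row with Gm43809, Gm42688 and Nme3 and were not members.

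The cells were CD4+ T cells purified from lymph nodes by negative magnetic bead isolation. The donors were 12-week-old C57BL6 mice, homozygous either for the Anaef allele of Rasgrp1, a missense allele of the Ras activator of T cells, or for the wild-type allele (WT). Ribosome-protected fragments (RPF), the pieces of mRNA left inside ribosomes after nuclease digestion, came from 2 Anaef pools (3B and 4B) and 2 WT pools (1B and 2B), after a short cycloheximide treatment that both genotypes received. Total RNA was sequenced from 4 Anaef libraries (replicates 5 to 8) and 4 WT libraries (replicates 1 to 4), without cycloheximide. For RPF the cells were pooled in pairs, with the animals of each pool not named in the labels. Nothing ties libraries to separate animals beyond their titles, and a p-value here reflects the spread among these libraries alone.

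The mitoribosome translates only the few mRNAs of mitochondrial DNA, which encode core subunits of the respiratory chain and ATP synthase. All of its proteins are encoded in the nucleus, made on cytosolic ribosomes and imported, so an RPF on an Mrpl or Mrps mRNA reports cytosolic translation of that mRNA and not the activity of the mitoribosome. T cells enlarge their mitochondria and raise mitochondrial translation after activation.

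Library depth was 2868943 to 3464868 counts in Anaef RPF pools and 4044330 to 7009342 in WT RPF pools, and 18580747 to 39467754 in Anaef total RNA and 15326842 to 40046317 in WT total RNA. Rasgrp1 itself averaged 80.5 CPM (normalised read counts scaled to 1e+06 per library) in Anaef RPF and 115 in WT RPF, and 690 CPM in Anaef and 598 in WT total RNA. Neither difference passed the test (edgeR adjusted p = 0.363 and 0.945), and a missense allele need not alter its level. The summed CPM of 7 CD4 T cell markers was 3846 to 3948 in Anaef and 3350 to 3760 in WT RPF pools, and 3233 to 5372 in Anaef and 2941 to 3328 in WT total RNA. Markers of some other cells were lower in Anaef samples, and those of others overlapped. The summed CPM of 6 B cell markers was 12.6 to 20.5 in Anaef and 26.4 to 51.6 in WT RPF, with Cd22 at 0 in the pools of both genotypes, and 5 of the 6 were lower in both Anaef pools than in either WT pool. In total RNA the B cell sums of 16.9 to 41.3 CPM in Anaef and 36.7 to 66.8 in WT libraries overlapped, with 1 of 6 lower in every Anaef library. Plasma cell markers summed to 1635 to 4774 CPM in Anaef and 7997 to 15930 in WT RPF, and to 478 to 975 in Anaef and 1414 to 6313 in WT total RNA. Of these 7 markers, 5 were lower in both Anaef pools and 4 in every Anaef total RNA library, and Irf4, also a gene of stimulated T cells, overlapped in both assays. The 6 myeloid and dendritic markers summed to 14.9 to 18.8 CPM in Anaef and 23.2 to 29.9 in WT total RNA, with no overlap, and to 13.9 to 24.7 in Anaef and 22.6 to 32.4 in WT RPF, with overlap. The 3 erythroid markers summed to 1.22 to 3.91 CPM in Anaef and 5.35 to 7.68 in WT RPF, with no overlap. In total RNA they summed to 0 to 0.241 in Anaef and 0.0257 to 4.63 in WT, with overlap. The 4 endothelial and stromal markers, nearly all Pecam1, summed to 104 to 110 CPM in Anaef and 115 to 125 in WT RPF, with no overlap. In total RNA they summed to 168 to 245 in Anaef and 161 to 176 in WT, with overlap. CD8 and NK cell marker sums overlapped between genotypes in both assays. The part of all these other cells in the values below was not tested. In bulk cells, fewer cells of a type and less RNA per cell cannot be told apart.

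The members lie on 17 chromosomes, and their start sites often lie near that of a gene on the opposite strand. A start site of a protein-coding gene on the opposite strand lay within 1000 bases for 32 of the 75 members (42.7%), against 1934 of 11685 protein-coding genes tested in total RNA (16.6%). The neighbours named here were chosen after the distances were seen. Pairs whose 5′ ends overlap were counted as well. Mrpl46 and Mrps11, a large and a small subunit protein, start 412 bases apart on opposite strands and overlap by 173 exon bases. Mrps12 and Sars2, the mitochondrial seryl-tRNA synthetase, start 172 bases apart. Mrpl36 and Ndufs6, a subunit of complex I, start 29 bases apart and overlap by 30 exon bases.

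RefSeq promoters on GRCm38.p6, from 250 bases before to 50 bases after the start, were matched for 67 of the 75 members. Those not matched were Mrpl13, Mrpl15, Mrpl19, Mrpl38, Mrpl4, Mrpl54, Mrps28 and Mrps35. The letters of 3 factors known to act on mitochondrial genes were searched on both strands. The NRF1 letters GCATGCGC were in 7 of 67 member promoters (10.4%) and in 5.63% of 9216 promoters. The ETS letters CCGGAAG, bound by factors such as GABPA, were in 22 of 67 (32.8%) and in 19.2%. The YY1 letters AAGATGGC were in 12 of 67 (17.9%) and in 4.84%. By contrast, the TATA box letters TATAAA were in 4 of 67 (5.97%) and in 7.01%. The letters of NRF1, ETS or YY1 were in 34 member promoters (50.7%) and in 27.1% of the 9216. A match is a description of letters, not of binding. Printed 5′ to 3′ on the minus strand with matches in capitals are the promoter of Mrps12, at chr7:28741772-28742071, with YY1 and ETS letters, that of Mrps18b, at chr17:35916391-35916690, with NRF1 letters at 2 places and ETS letters, and that of Mrps16, at chr14:20393585-20393884, the member with the highest ratio of RPF to total RNA in WT cells, with none.
Mrps12: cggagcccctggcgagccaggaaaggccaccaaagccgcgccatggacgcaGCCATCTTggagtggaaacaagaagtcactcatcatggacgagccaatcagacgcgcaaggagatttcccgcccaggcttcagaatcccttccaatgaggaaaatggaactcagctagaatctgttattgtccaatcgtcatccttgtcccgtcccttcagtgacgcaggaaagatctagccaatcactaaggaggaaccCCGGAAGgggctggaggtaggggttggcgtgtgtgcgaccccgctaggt
Mrps18b: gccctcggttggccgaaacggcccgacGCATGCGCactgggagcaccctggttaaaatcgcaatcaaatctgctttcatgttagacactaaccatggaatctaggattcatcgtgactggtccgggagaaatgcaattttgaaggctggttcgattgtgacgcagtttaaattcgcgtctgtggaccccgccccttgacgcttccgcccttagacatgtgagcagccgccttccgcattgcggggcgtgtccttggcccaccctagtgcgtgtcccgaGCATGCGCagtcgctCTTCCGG
Mrps16: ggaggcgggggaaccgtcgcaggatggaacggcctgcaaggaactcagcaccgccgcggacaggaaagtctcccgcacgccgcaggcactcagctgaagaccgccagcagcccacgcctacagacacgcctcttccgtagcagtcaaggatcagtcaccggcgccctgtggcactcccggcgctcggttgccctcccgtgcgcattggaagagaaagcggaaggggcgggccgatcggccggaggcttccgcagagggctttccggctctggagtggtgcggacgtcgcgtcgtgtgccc

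Per kb, the median member lay below the median protein-coding gene in total RNA and above it in RPF. Members had a narrower range in RPF than in total RNA. All CPM are on 1 scale, set over the 12 libraries by TMM normalization. Members took 0.235% of RPF counts in Anaef pool 3B (95% Wilson interval 0.230 to 0.240) and 0.241% in pool 4B (0.235 to 0.247). They took 0.211% in WT pool 1B (0.207 to 0.214) and 0.223% in pool 2B (0.219 to 0.228). The share was thus higher in both Anaef pools. Of counts on nuclear protein-coding genes alone, the 2 Anaef pools each gave 0.256%, against 0.242% and 0.244% in the WT pools. In total RNA the share was 0.0906% to 0.110% in Anaef libraries and 0.0864% to 0.113% in WT libraries, and the genotypes overlapped. Such intervals take in counting error alone, as reads here carry no molecular identifiers. The median member had 88 to 174 counts in an RPF pool and 134 to 380 in a total RNA library, and no member was at 0 in any library. All 75 passed the filter on low counts in each fit.

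Levels between members were compared per kb, using the coding sequence for RPF and all exons for total RNA. The median member had 34.6 CPM per kb in Anaef RPF and 30.4 in WT RPF, and 3.65 in Anaef total RNA and 3.60 in WT total RNA. The median of 8880 protein-coding genes tested in RPF was 14.95 in Anaef and 15.26 in WT RPF, and 5.14 and 5.06 in total RNA. Between the 90th and the 10th percentile of members, RPF levels differed 3.42-fold in Anaef and 4.16-fold in WT cells. Total RNA levels differed 8.91-fold in Anaef and 8.68-fold in WT cells. The SD of log2 levels over members was 0.84 in Anaef and 0.84 in WT RPF, and 1.27 in Anaef and 1.26 in WT total RNA. Over the 8880 protein-coding genes tested in RPF, it was 2.21 in Anaef and 2.18 in WT RPF, and 2.04 in Anaef and 1.96 in WT total RNA, so RPF was the wider of the 2 assays there. Cytosolic ribosomal proteins (75 genes) also had a smaller SD in RPF, 0.91 in Anaef and 0.94 in WT, against 1.4 and 1.36 in total RNA. Nuclear respiratory chain genes (80 genes) did not, with 1.70 in Anaef and 1.67 in WT RPF and 1.43 and 1.44 in total RNA.

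Across the 75 members, log2 RPF per kb against log2 total RNA per kb gave r = 0.19 (rho = 0.25) in Anaef and r = 0.24 (rho = 0.29) in WT cells. Over the 8880 protein-coding genes r was 0.59 in Anaef and 0.60 in WT cells. These correlations are across genes of the same libraries, and genes are not independent replicates.

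**Figure D1:**
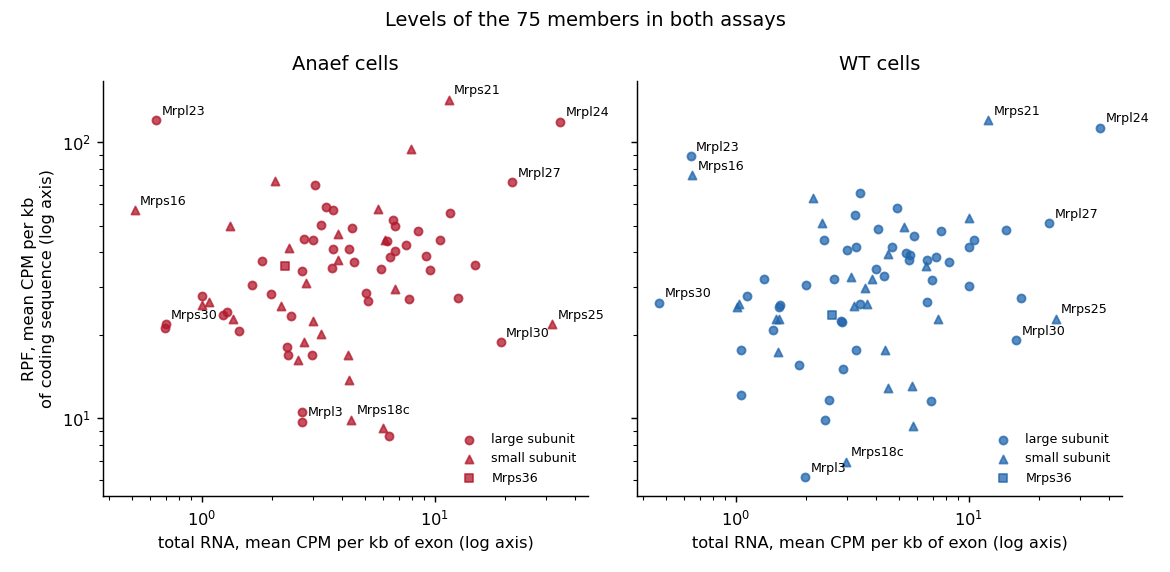
Mean level of each of the 75 members, RPF per kb of coding sequence against total RNA per kb of exon, on log axes, with Anaef cells on the left and WT cells on the right. Members spread more along the horizontal axis (SD of log2 levels 1.27 and 1.26) than along the vertical axis (0.84 and 0.84), and Mrps16, Mrpl23 and Mrps30 stand at the left edge with middle or high RPF.

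In RPF, the 6 highest members per kb in WT cells were Mrps21, Mrpl24, Mrpl23, Mrps16, Mrpl51 and Mrps17. Mrps21, a small subunit protein, led with 143 ± 12.9 CPM per kb in Anaef and 120 ± 7.53 in WT pools (SD, n = 2 each). Mrpl24, a protein near the exit of the peptide tunnel, had 119 ± 6.98 in Anaef and 113 ± 5.52 in WT pools, within the spread of Mrps21 in WT. Mrpl23, another protein at the tunnel exit, had 120 ± 6.60 in Anaef and 89.2 ± 11.1 in WT pools. The remaining 3 of these had 62.6 to 76.3 in WT pools, and the SD of Mrps17 (14.7) exceeded its distance to Mrpl51 and Mrps16. The 6 lowest in WT were Mrpl3, Mrps18c, Mrps2, Mrpl55, Mrpl37 and Mrpl2. Mrpl3, mutated in a human mitochondrial cardiomyopathy, had 9.72 ± 7.12 in Anaef and 6.12 ± 1.17 CPM per kb in WT pools. Mrps18c had 9.88 ± 0.533 in Anaef and 6.96 ± 3.25 in WT pools, so these 2 did not differ beyond their spread.

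In total RNA, the 6 highest members per kb in WT cells were Mrpl24, Mrps25, Mrpl27, Mrpl4, Mrpl30 and Mrpl18. Mrpl24 had 34.6 ± 5.29 in Anaef and 36.7 ± 3.02 CPM per kb in WT libraries (SD, n = 4 each). Of its exons 26.3% lie over those of Rrnad1 on the opposite strand, a gene with 42.9 CPM in Anaef and 40.1 in WT total RNA. Mrps25, a small subunit protein, had 31.9 ± 7.52 in Anaef and 23.7 ± 1.45 in WT libraries. Its value cannot be separated from that of Nr2c2, a nuclear receptor on the opposite strand, whose exons cover 69.8% of the Mrps25 exons and which had 286 CPM in Anaef and 222 in WT total RNA. The strand setting of the counting is not given. Gm42933, a pseudogene, matches Mrps25 at 98.0% over 2070 bases and had 6698 counts over the total RNA libraries and 0 in RPF. The RPF columns are labelled as masked, and which features were masked is not given. The 6 lowest members were Mrps30, Mrpl23, Mrps16, Mrps35, Mrps11 and Mrpl14, between 0.469 ± 0.166 for Mrps30 and 1.05 ± 0.253 CPM per kb for Mrpl14 in WT. Mrpl23 and Mrps16, at 0.639 ± 0.2 and 0.649 ± 0.297 in WT libraries, did not differ beyond their spread.

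Near-identical stretches in other transcripts could divide reads with some members. At 95% identity or more over at least 100 bases, 26 members matched a transcript annotated as a pseudogene, here called a copy. Other sequences were not searched, and a match could cover only a short part of a transcript. Gm10499 and Gm9894, for example, each matched Mrpl13, Mrps14 and Mrps26, over 151 to 195 bases. A match is thus not always a copy of the member as a whole. Exons of another protein-coding gene overlapped 21 members, and 35 had neither. Mrpl23-ps1, for example, matches Mrpl23 at 100% over 540 bases and had 650 counts in total RNA and 0 in RPF. Of all 5997 rows of processed pseudogenes, 104 had RPF counts and 3735 had total RNA counts. Whether masking of the RPF columns set such values of 0 was not tested. Mrpl23 itself had 379 counts in Anaef and 354 in WT total RNA, and 1246 in RPF.

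RPF relative to total RNA was tested within each genotype. This ratio is a relative value between 2 kinds of library, since total RNA reads may fall anywhere in a transcript and RPF reads fall on coding sequence. In Anaef cells 39 of 75 members were higher in RPF and 5 lower (edgeR quasi-likelihood test, Benjamini-Hochberg adjusted p under 0.05). In WT cells 42 were higher and 8 lower. Of all 18032 genes tested in Anaef cells 16.4% were called higher and 50.8% lower, and of 17775 in WT cells 19.6% were called higher and 54.4% lower. These tables hold many noncoding genes with almost no RPF. Of protein-coding genes alone, 21.6% were higher and 36.3% lower in Anaef cells, and 26.4% higher and 39.4% lower in WT cells. The median log2 ratio of members was 1.04 in Anaef and 0.90 in WT cells, against -0.48 and -0.36 over protein-coding genes. With the coding length trend removed, 52 members were called higher and 3 lower in Anaef cells, with a median of 1.48. In WT cells 55 were called higher and 3 lower, with a median of 1.58. The values over all genes moved up as well. Of 11854 nuclear protein-coding genes in Anaef cells 3789 were called higher and 2953 lower, with a median of 0.21. Of 11723 in WT cells 4733 were called higher and 3336 lower, with a median of 0.39. Without Anaef pool 3B the members called higher in Anaef cells numbered 20, and without pool 4B 21, with 3 and 4 called lower. Without Anaef total RNA replicate 7, 3 were called lower. In WT cells 4 were called lower without pool 1B and 5 without pool 2B.

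The 2 genotypes placed the members in much the same order. The ratio had the same sign in 71 of 75 members. In both genotypes 33 were called higher and 5 lower, namely Mrpl30, Mrpl37, Mrps10, Mrps2 and Mrps25, and 0 were called in opposite directions. Across members the 2 sets of ratios gave r = 0.95, from separate libraries of the same 2 kinds. Large subunit members had a median log2 ratio of 1.01 in Anaef and 0.90 in WT cells, with 27 and 28 of 49 called higher. Small subunit members had 1.09 in Anaef and 0.72 in WT cells, with 11 and 13 of 25 called higher. Among the 35 members with no overlap and no copy, 18 were higher and 2 lower in Anaef cells, and 21 higher and 5 lower in WT cells.

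**Figure D2:**
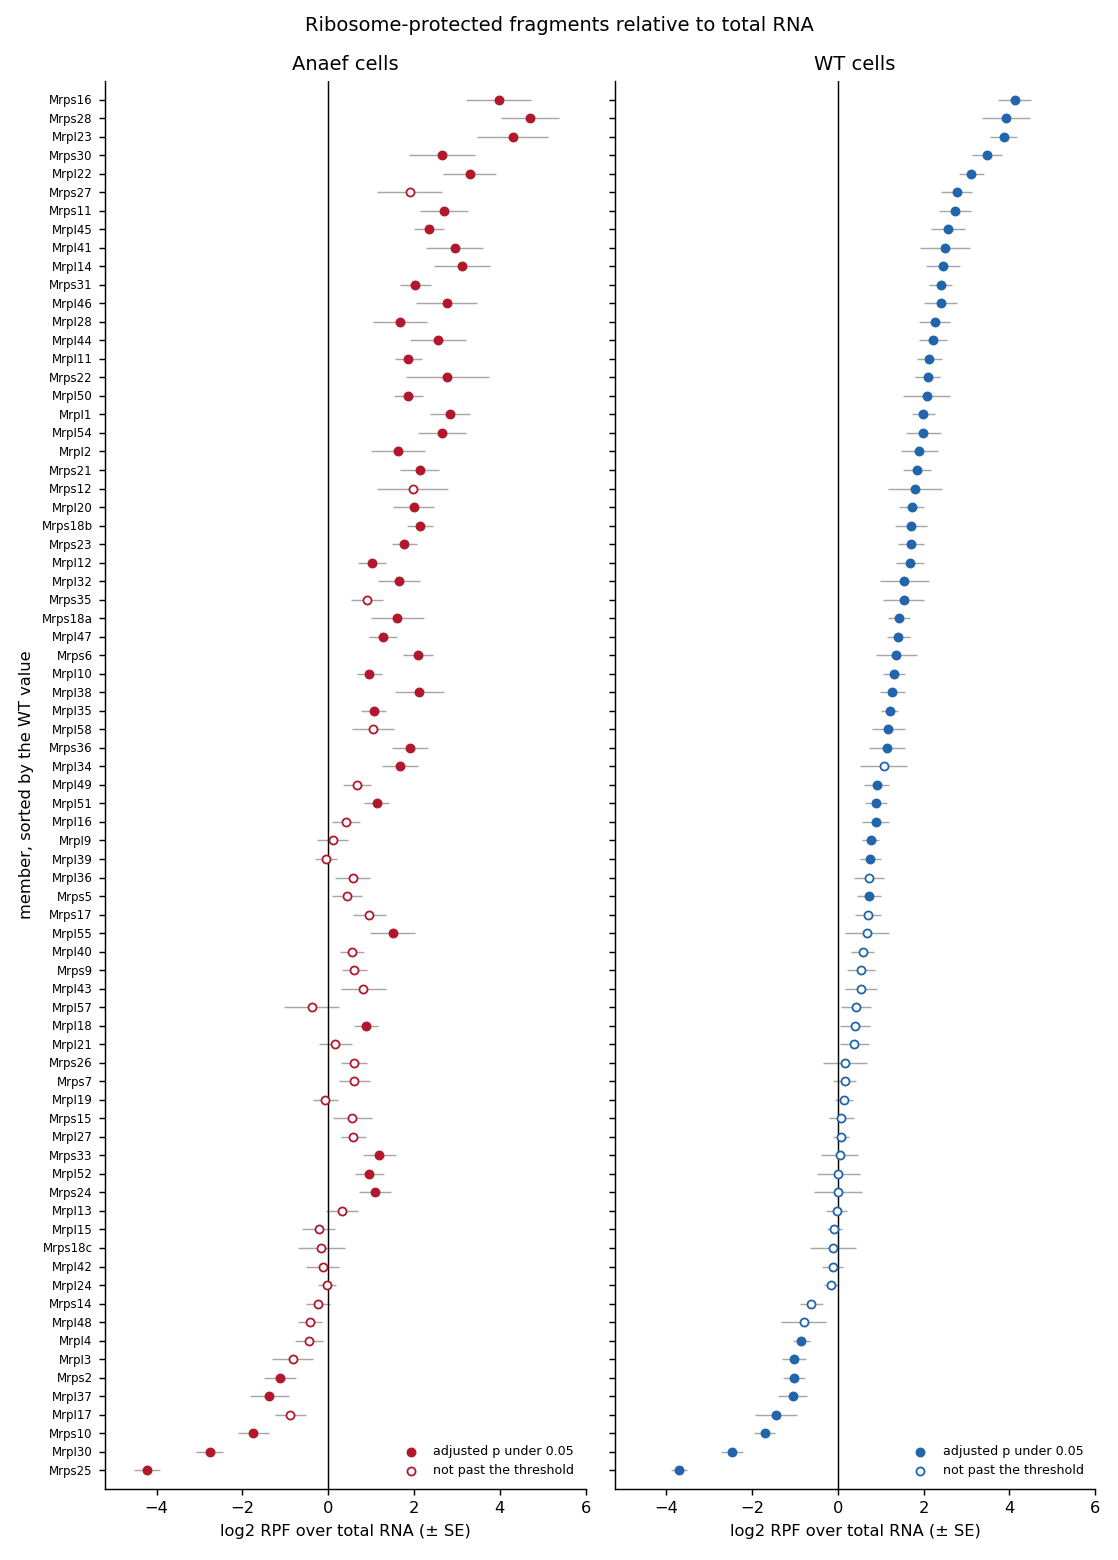
Log2 ratio of RPF to total RNA for each member, with its standard error, in Anaef cells on the left and WT cells on the right, sorted by the WT value. Filled points passed an adjusted p of 0.05, and the order runs from Mrps16 (3.97 in Anaef, 4.12 in WT) down to Mrps25 (-4.22 in Anaef, -3.71 in WT).

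At the top were small and large subunit proteins with few total RNA counts. Mrps16, a conserved small subunit protein mutated in a human respiratory chain disorder, had 30.8 and 15.2 CPM in the Anaef RPF pools, against 2.80, 0.246, 1.05 and 1.82 CPM in Anaef total RNA. In WT cells it had 27.8 and 34.0 CPM in RPF, against 1.10, 1.59, 3.09 and 1.69 in total RNA. Every RPF value lay above every total RNA value. The log2 ratio was 3.97 ± 0.76 in Anaef and 4.12 ± 0.38 in WT cells (SE, edgeR adjusted p = 0.00206 and 4.61e-05).

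Mrps28, a small subunit protein, had 25.3 and 30.3 CPM in Anaef RPF and 0.187, 0.698, 1.45 and 1.78 in Anaef total RNA. In WT cells it had 28.0 and 29.0 CPM in RPF and 0.846, 3.46, 0.771 and 2.25 in total RNA. RPF was nearly level across the 4 pools, while total RNA varied several-fold within each genotype. Its log2 ratio was 4.71 ± 0.68 in Anaef and 3.92 ± 0.56 in WT cells. Mrpl23 had a log2 ratio of 4.30 ± 0.82 in Anaef and 3.87 ± 0.31 in WT cells. By the measure above 5 pseudogenes matched Mrpl23, namely Mrpl23-ps1 over 540 bases and the others over 108 to 115 bases.

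Others at the top in WT cells were Mrps30 (3.48 ± 0.35), Mrpl22, which lines the peptide tunnel (3.11 ± 0.29), Mrps27, a pentatricopeptide repeat protein (2.77 ± 0.35), Mrps11 (2.73 ± 0.37) and Mrpl45, which sits near the inner membrane (2.56 ± 0.39). In Anaef cells they were Mrpl22 (3.30 ± 0.62), Mrpl14, a protein of the interface between the subunits (3.12 ± 0.65), Mrpl41 (2.95 ± 0.66), Mrpl1 (2.84 ± 0.46) and Mrps22 (2.78 ± 0.96). Total RNA of Mrps22 was 0.0622 CPM in Anaef replicate 5, 1 count, and 3.94 to 6.33 in the other 3 replicates.

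At the bottom, Mrps25 had 12.2 and 10.3 CPM in the Anaef RPF pools against 173 to 279 in Anaef total RNA, and 10.9 and 12.6 against 143 to 163 in WT cells. The log2 ratio of Mrps25 was -4.22 ± 0.30 in Anaef and -3.71 ± 0.19 in WT cells, on total RNA counts that overlap Nr2c2. The ratio is not scaled to length, and 513 of the 6576 exon bases of Mrps25 are coding. Per kb, Mrps25 had 21.9 CPM in Anaef and 22.9 in WT RPF, against 31.9 and 23.7 in total RNA. Mrpl30, a large subunit protein, had 9.38 and 8.80 CPM in Anaef RPF against 45.3 to 79.5 in total RNA, and 9.26 and 9.15 against 42.8 to 66.0 in WT cells. In CPM, RPF of Mrpl30 varied little over the 4 pools and lay below every total RNA library. Of the 3226 exon bases of Mrpl30, 480 are coding. Per kb, Mrpl30 had 18.9 CPM in Anaef and 19.2 in WT RPF, against 19.2 and 16.1 in total RNA. Its log2 ratio was -2.77 ± 0.32 in Anaef and -2.47 ± 0.25 in WT cells (edgeR adjusted p = 0.000144 and 7.33e-05). Mrps10 followed with -1.75 ± 0.37 in Anaef and -1.70 ± 0.24 in WT cells. Mrpl37 had -1.38 ± 0.46 in Anaef and -1.05 ± 0.34 in WT cells, and Mrps2 had -1.13 ± 0.37 and -1.03 ± 0.25. Mrpl17, Mrpl3 and Mrpl4 were called lower in RPF in WT cells, at -1.44 ± 0.48, -1.02 ± 0.28 and -0.85 ± 0.20. Per kb, Mrpl17, Mrpl3 and Mrpl4 had more RPF than total RNA in WT cells, as did Mrpl37 and Mrps2 in both genotypes. With a coding length trend over all genes removed, Mrpl37 and Mrps2 in both genotypes and Mrpl17, Mrpl3 and Mrpl4 in WT cells no longer passed.

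Across the members, the WT ratio was lower where total RNA was higher (r = -0.82 against log2 total RNA CPM), a value that shares the total RNA counts with the ratio itself. Against the share of exon length that is coding r was 0.42, and against coding length 0.07. Members with NRF1, ETS or YY1 letters in the promoter had a median ratio of 0.96 in Anaef and 0.76 in WT cells, and members with none of them 1.62 and 1.41. Whether these properties bear on the ratio was not tested.

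The Mrps18 genes are 3 paralogs, of which Mrps18a is a large subunit and Mrps18b and Mrps18c are small subunit proteins. Mrps18b had the most RPF, 46.6 ± 8.26 CPM per kb in Anaef and 39.5 ± 6.03 in WT pools (SD, n = 2). Mrps18a followed with 23.6 ± 0.0879 in Anaef and 25.4 ± 1.82 in WT pools, and Mrps18c was lowest. Counts of Mrps18c were low, at 18 to 23 in an RPF pool. In total RNA per kb the order differed, with Mrps18a lowest at 1.23 ± 0.835 in Anaef and 1.53 ± 0.245 in WT libraries. The pseudogene Gm13552 matches Mrps18b at 99.8% over 417 bases and had 514 counts in total RNA. Gm16279 on the opposite strand lies over 30.5% of Mrps18b exons. Gm43511 on the same strand lies over 23.2% of Mrps18c exons. The RPF ratio was called higher for Mrps18a and Mrps18b in both genotypes, and for Mrps18c it was -0.16 ± 0.54 in Anaef and -0.11 ± 0.55 in WT cells, with adjusted p = 0.808 and 0.86 by edgeR.

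Among members with roles of their own, Mrpl12, the stalk protein that also binds mitochondrial RNA polymerase, had a log2 ratio of 1.01 ± 0.33 in Anaef and 1.68 ± 0.32 in WT cells. Mrps36 had 1.90 ± 0.41 and 1.15 ± 0.43. These passed in both genotypes, as did Mrps30. Mrps12, a protein of the decoding centre, had 1.97 ± 0.83 in Anaef and 1.79 ± 0.63 in WT cells and passed in WT cells (edgeR adjusted p = 0.0641 in Anaef, 0.0318 in WT). Mrpl58, a peptidyl-tRNA hydrolase that frees stalled mitoribosomes, had 1.04 ± 0.48 and 1.17 ± 0.39 with adjusted p = 0.0865 in Anaef and 0.0252 in WT cells by edgeR. Mrps5, known for its part in decoding accuracy, had 0.44 ± 0.35 and 0.72 ± 0.28, with adjusted p = 0.283 in Anaef and 0.0466 in WT cells by edgeR.

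The study asked how the Anaef allele changed the mRNA and the ribosome footprints of these cells. In total RNA, 0 of 75 members passed the edgeR test, and 0 passed with DESeq2 or limma-voom. Over all 17876 genes tested, 0.0224% were called by edgeR. Of the same genes DESeq2 called 29 higher and 91 lower, and limma-voom 0 higher and 2 lower. At an unadjusted p under 0.05, 3 members were higher and 0 lower in Anaef cells, against 2.73% of genes higher and 2.89% lower. The fold change was positive for 34 members and negative for 41, with a median log2 of -0.04 against 0.01 over all genes. Without WT replicate 3 the members' median was 0.10.

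Mrpl12 had the smallest p in total RNA, with 8.40, 7.19, 6.52 and 9.70 CPM in Anaef libraries against 2.73, 5.13, 5.11 and 4.37 CPM in WT libraries. Every Anaef library lay above every WT library. The log2 difference for Mrpl12 was 0.88 ± 0.31 (SE, edgeR adjusted p = 0.84), so it did not pass. In RPF Mrpl12 had 16.7 and 15.4 CPM in Anaef and 13.8 and 13.5 CPM in WT pools, also without overlap, a log2 difference of 0.25 ± 0.20. Mrpl39, Mrps25 and Mrpl11 likewise had no overlap in total RNA. The 4 members higher in every Anaef library were 5.33% of the 75, against 1.55% of all genes, and 0 were lower in every Anaef library, against 2.08%. The differences of Mrpl39 and Mrps25 were 0.57 ± 0.21 and 0.43 ± 0.17, and Nr2c2 on the opposite strand had 251 to 345 CPM in Anaef and 175 to 249 in WT libraries. The next smallest p on the higher side belonged to Mrpl57 (1.05 ± 0.48), Mrpl9 (0.52 ± 0.25) and Mrpl16 (0.58 ± 0.30). On the lower side they belonged to Mrpl4 (-0.42 ± 0.22), Mrpl52 (-0.62 ± 0.38), Mrpl1 (-0.60 ± 0.41), Mrps5 (-0.40 ± 0.28), Mrps15 (-0.43 ± 0.35) and Mrps28 (-0.84 ± 0.74). The edgeR adjusted p of these 12 was 0.84 to 0.961.

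**Figure D3:**
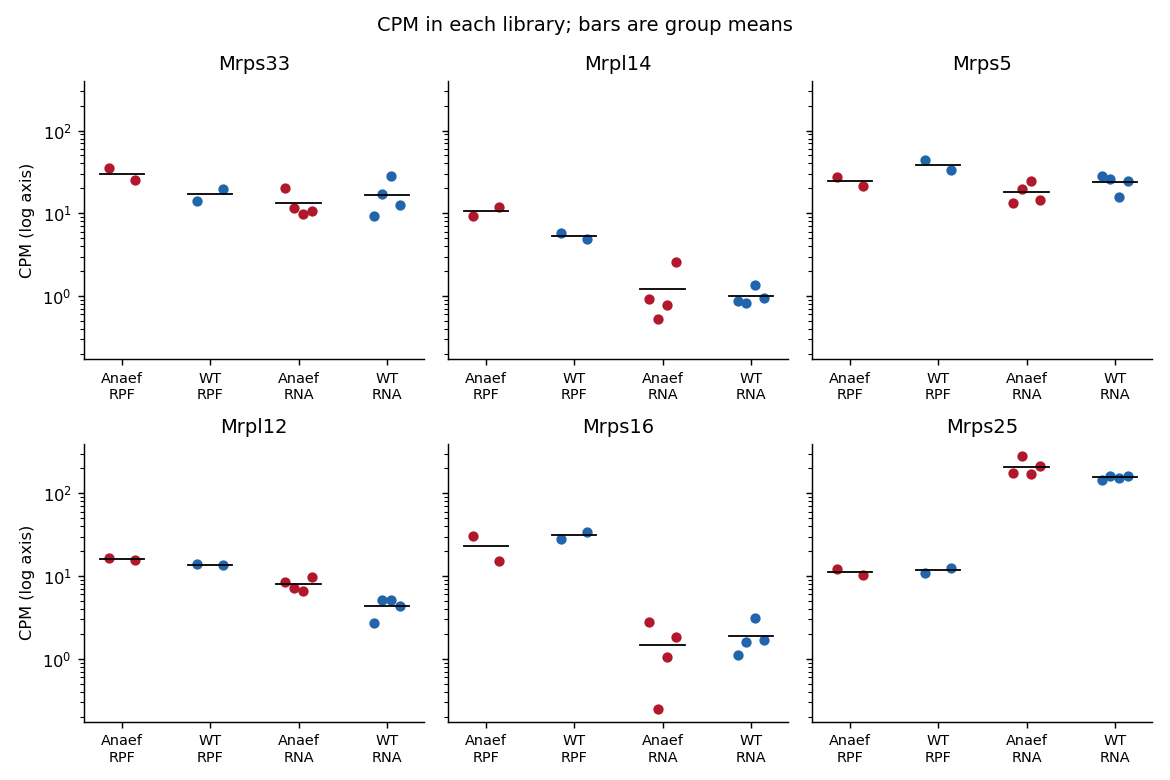
CPM of 6 members in each library on a log axis, with Anaef left of WT in RPF and then in total RNA, and bars at group means. Mrps33 and Mrpl14 are higher and Mrps5 is lower in both Anaef RPF pools than in the WT pools, Mrpl12 is higher in the Anaef libraries of both assays, and Mrps16 and Mrps25 differ between assays far more than between genotypes.

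In RPF, 0 of 75 members passed the edgeR test between Anaef and WT pools, as was so of all 9710 genes tested (0% called). With DESeq2 or limma-voom 0 members passed. Of the 9710 genes DESeq2 called 70 higher and 127 lower, and limma-voom called 0. At an unadjusted p under 0.05, 6 members were higher and 1 lower, against 4.92% of genes higher and 6.93% lower. The fold change was positive for 53 of 75 members (70.7%) and for 50.8% of all genes, with a median log2 of 0.14 against 0.01. Without Anaef pool 4B the median was 0.08. In 23 members (30.7%) both Anaef pools lay above both WT pools, against 21.5% of genes, and in 5 (6.67%) both lay below, against 23.3%.

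Mrps33, a small subunit protein without a bacterial counterpart, had 35.3 and 24.9 CPM in Anaef against 14.0 and 19.9 CPM in WT RPF pools. The log2 difference for Mrps33 was 0.86 ± 0.26 (SE, edgeR adjusted p = 0.344), and in total RNA Mrps33 had 9.89 to 20.5 CPM in Anaef and 9.40 to 28.1 in WT libraries, which overlapped. Gm5776, a pseudogene, matches Mrps33 at 99.7% over 321 bases and had 1435 counts in total RNA and 0 in RPF. Mrps33 itself had 1292 counts in Anaef and 1518 in WT total RNA, so its total RNA values may share reads with this copy. Mrpl14 had 9.17 and 12.0 CPM in Anaef against 5.79 and 4.83 CPM in WT RPF pools, a log2 difference of 0.99 ± 0.30 with edgeR adjusted p = 0.344. The other 4 with an unadjusted p under 0.05 on the higher side were Mrpl27 (0.50 ± 0.17), Mrpl22 (0.50 ± 0.17), Mrpl23 (0.45 ± 0.17) and Mrpl54 (0.62 ± 0.26), all without overlap between genotypes.

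On the lower side, Mrps5 had 27.5 and 21.5 CPM in Anaef against 43.9 and 33.0 CPM in WT RPF pools. The log2 difference for Mrps5 was -0.64 ± 0.22 (edgeR adjusted p = 0.378), and its total RNA values of 13.2 to 24.6 CPM in Anaef and 15.5 to 28.4 CPM in WT libraries overlapped. Next came Mrpl45 (-0.30 ± 0.20), Mrpl37 (-0.39 ± 0.29), Mrps16 (-0.40 ± 0.32), Mrps30 (-0.25 ± 0.21) and Mrps9 (-0.19 ± 0.17). Of the 3 Mrps18 paralogs, Mrps18a was at -0.09 ± 0.21, Mrps18b at 0.26 ± 0.21 and Mrps18c at 0.57 ± 0.46. Mrps36 was at 0.63 ± 0.30, Mrps12 at 0.25 ± 0.41 and Mrpl58 at 0.03 ± 0.18.

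The RPF difference went with coding length, in members as in other genes. Against log2 coding length the members' log2 difference gave r = -0.49 (n = 75 genes of the same 4 pools). Among the 38 shorter members, with coding lengths of 261 to 588 bases, 31 were positive (81.6%) and the median was 0.25. All 1036 protein-coding genes of that length had 76.5% positive and a median of 0.25. Among the 37 longer members, of 589 to 1326 bases, 22 were positive (59.5%) with a median of 0.03, against 46.0% of 3097 genes and a median of -0.03. With the length trend removed, the members' RPF median was 0.05 and that of all genes 0.04. In total RNA the shorter range had a median of -0.05 over members and 0.06 over 1304 genes. The nuclear respiratory chain genes, many of them short, had an RPF median of 0.32 with 58 of 80 positive, and the cytosolic ribosomal proteins 0.11 with 52 of 76.

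**Figure D4:**
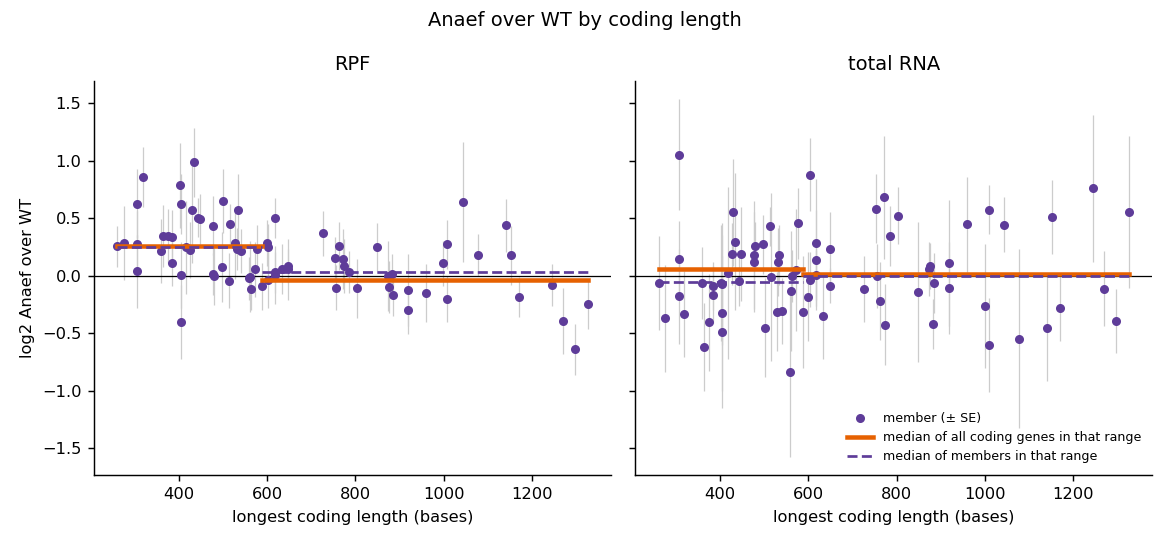
Log2 difference of Anaef over WT for each member, with its standard error, against its longest coding length, in RPF on the left and total RNA on the right. Solid bars are medians of all protein-coding genes and dashed bars medians of members in the same length range, at 0.25 and 0.25 for the shorter range in RPF and -0.03 and 0.03 for the longer range.

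The difference in RPF relative to total RNA between genotypes was tested as an interaction over the 12 libraries. Of the 75 members 0 passed by edgeR, DESeq2 or limma-voom. Of 19031 genes 0% were called by edgeR or limma-voom, and DESeq2 called 4 higher and 6 lower. At an unadjusted p under 0.05, 0 members were higher and 1 lower, against 1.59% of genes higher and 1.76% lower. The member was Mrpl39, at -0.78 ± 0.35, with 35.9 and 36.9 CPM in Anaef and 47.9 and 36.4 CPM in WT RPF. The median over members was 0.16, against 0.01 over all genes, and 42 were positive. It was -0.0029 over the 35 members with no overlap and no copy and 0.28 over the other 40, and without WT total RNA replicate 3 it was 0.06 over all 75. With the length trend removed the median was -0.08, against -0.10 over all genes. On the higher side the smallest p belonged to Mrps33 (1.18 ± 0.62), Mrps24 (1.10 ± 0.69), Mrpl52 (0.98 ± 0.62), Mrpl1 (0.86 ± 0.55), Mrpl27 (0.54 ± 0.35) and Mrps36 (0.78 ± 0.59). In WT total RNA, Mrps33, Mrps24 and Mrpl52 were highest in replicate 3, at 28.1, 13.5 and 21.4 CPM. The other WT libraries had 9.40 to 16.9, 3.82 to 5.05 and 6.90 to 8.85 CPM. Mrpl1, Mrpl27 and Mrps36 were not highest in that replicate. On the lower side Mrpl39 was followed by Mrps25 (-0.49 ± 0.30), Mrpl9 (-0.64 ± 0.43), Mrpl12 (-0.64 ± 0.44), Mrpl57 (-0.80 ± 0.81) and Mrpl16 (-0.44 ± 0.47). Over the members, the median coefficient of variation between libraries was 12.8% in Anaef and 12.4% in WT RPF, and 31.6% in Anaef and 30.6% in WT total RNA.

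Other genes of mitochondrial translation were read beside the members. Of 5 mitoribosomal proteins with other symbols (Dap3, Ptcd3, Chchd1, Aurkaip1 and Gadd45gip1), 5 were higher in RPF than in total RNA in Anaef cells and 3 in WT cells, and 0 lower. Of 13 translation factors tested, 5 were higher and 3 lower in Anaef and 6 higher and 3 lower in WT cells. Of 25 assembly factors, 7 were higher and 8 lower in Anaef and 8 and 8 in WT cells. The smallest p belonged to Mettl17, an assembly factor of the small subunit (-3.80 ± 0.40 in Anaef, -4.63 ± 0.27 in WT), Guf1, a translation factor of the EF4 family (-4.17 ± 0.38 and -3.54 ± 0.24), and Chchd1 (4.46 ± 0.42 and 4.31 ± 0.33). Of the nuclear respiratory chain genes 59 of 81 were higher in Anaef and 60 in WT cells, and of the cytosolic ribosomal proteins 18 of 76 were higher and 32 lower in Anaef and 16 higher and 32 lower in WT cells.

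Between genotypes 0 of these other mitochondrial translation genes passed the edgeR test in either assay. At an unadjusted p under 0.05 the counts were 3 in total RNA and 2 in RPF. The 3 lists had 5, 13 and 25 genes tested in total RNA and 5, 12 and 24 in RPF. Over all genes, 1004 of 17876 in total RNA and 1151 of 9710 in RPF had such a p. In RPF the smallest p belonged to Grsf1, an RNA granule protein (-0.65 ± 0.20), Gfm1, an elongation factor (-0.54 ± 0.17), and Mtrf1l, a release factor (-0.52 ± 0.23). In total RNA it belonged to Guf1 (0.51 ± 0.18), Ngrn (0.68 ± 0.28) and Mtg1, a GTPase of ribosome assembly (-1.11 ± 0.48), and in the interaction to Gfm1 (-1.18 ± 0.52), Mettl17 (0.85 ± 0.43) and Tsfm, an elongation factor (0.72 ± 0.38). The translation factors had a median log2 difference in RPF of -0.15, with 2 of 12 positive, and the assembly factors of 0.03, with 13 of 24 positive.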

How the data were processed

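Total RNA and ribosome-protected fragments (RPF) of CD4+ T cells were analysed from raw counts per gene as deposited by the authors, with no normalization. TopHat 1.4.1, Bowtie 0.2.17 and GRCm38 are named in the submitters' processing notes. How reads were assigned to genes, whether strand was used and which features were masked in RPF are points not given in the sources used. Of the 45669 rows, 263 joined several identifiers and 44509 single identifiers matched GENCODE vM21.

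Genes were fitted over the whole table with edgeR 4.0.16 in R 4.3.3 (filterByExpr, TMM, quasi-likelihood F test, Benjamini-Hochberg adjustment at 0.05). Genotypes were compared over the 8 total RNA libraries and the 4 RPF pools, RPF with total RNA over the 6 libraries of each genotype, and the interaction over all 12. Standard errors were derived from the fold change and the F statistic. CPM used the TMM-scaled library sizes of the 12 libraries. Levels per kb used merged exon length for total RNA and the longest coding length for RPF. The script was tested on simulated data.

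Each group was taken from the sample titles. Named members were those with the smallest p or, where more than 10 passed, the 8 largest changes in each direction, the 6 highest and 6 lowest levels, and members with known special roles. Members and lists were chosen with earlier results of these data known. Alternatives were DESeq2 1.42.0, limma-voom (limma 3.58.1), RLE size factors, no filter, a mean of at least 50 counts, nuclear protein-coding genes only, removal of a lowess trend on coding length (span 0.3), 1 fit of 12 libraries and leaving out each library.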

Additional observations from a re-analysis of the deposited data

Results flagged for a closer look

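In total RNA of WT replicate 3, 3 members lay far from the other 3 WT libraries, by a gap to the nearest library that was large for the range of the group. Mrpl41, a large subunit protein, had 9.64 CPM there, against 2.16 to 2.98 CPM in the other WT libraries. Mrpl52, another large subunit protein, had 21.4 CPM, against 6.90 to 8.85 CPM. Mrps24, a small subunit protein, had 13.5 CPM, against 3.82 to 5.05 CPM. The test covered 86 groups of 4 libraries, from 43 members, and chance flags about 1 in 20 groups. WT replicate 3 was the shallowest total RNA library, with 15326842 counts.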

How the results depend on the processing

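In the genotype comparisons, 0 members passed under each alternative and each left-out library, except that with no filter on low counts Mrps33 passed in RPF, so that 1 was called higher (log2 0.84). In that unfiltered RPF fit 127 of all 14724 genes were called higher and 387 lower. Removing the trend with coding length moved the median log2 of members to 0.0525 in RPF (all genes 0.04) and to -0.0848 in the interaction (all genes -0.10). In the ratio of RPF to total RNA, removing that trend left 3 members called lower in Anaef and 3 in WT cells. It gave 52 and 55 called higher and medians of 1.48 and 1.58 (all genes 0.21 and 0.39). Of all genes in these fits, 3789 of 11854 in Anaef and 4733 of 11723 in WT cells were called higher. With limma-voom 3 were called lower in Anaef cells. The cause of these shifts was not tested.

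Leaving out each library in turn gave members called higher in RPF of 20 to 40 in Anaef and 29 to 46 in WT cells, called lower of 3 to 6 and 4 to 9, and medians of 1.01 to 1.12 and 0.82 to 1.11. The median genotype difference was 0.0793 to 0.161 in RPF, -0.04 to 0.10 in total RNA and 0.06 to 0.21 in the interaction. Where leaving out a pool left 1 pool of a genotype, that pool was assumed to vary like the other libraries. Loss of a call in the ratio was followed only for the members with the largest changes in each direction. These were 16 members in WT and 13 in Anaef cells. Among them, calls lost under an alternative or a left-out library were those of Mrpl17, Mrpl37, Mrps2, Mrpl3 and Mrpl4 in WT cells. In Anaef cells they were those of Mrps22, Mrpl37 and Mrps2. The lost calls made 14 values in each genotype, with no change of direction. Members named only for a special role, such as Mrps5, Mrps12 and Mrpl58, were not followed in this way. Of the 6 highest and 6 lowest members per kb in WT total RNA, 5 and 4 stayed with the longest transcript as length. No paired analysis was possible because the groups share no replicate numbers.

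Counting depth limits the lowest members, since the lowest had 1 to 32 counts in a library, and 2 RPF pools stood for each genotype.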

Other observations

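The 3 mitoribosomal genes that share a row with another gene had the following values, which cannot be divided between the 2 genes of a row. The row of Mrpl33 and Gm43809 averaged 81.6 ± 16.1 CPM in Anaef RPF and 73.0 ± 16.5 in WT RPF (SD, n = 2), and 32.1 ± 16.8 CPM in Anaef and 24.3 ± 3.18 in WT total RNA (SD, n = 4). The row of Mrps34 and Nme3 averaged 30.2 ± 3.56 CPM in Anaef RPF and 27.1 ± 2.63 in WT RPF, and 6.26 ± 1.97 in Anaef and 6.41 ± 2.28 in WT total RNA. The row of Mrpl53 and Gm42688 averaged 5.60 ± 1.01 CPM in Anaef RPF and 4.87 ± 0.931 in WT RPF, and 3.64 ± 1.85 in Anaef and 6.90 ± 1.04 in WT total RNA. Like the 75 members, these rows did not pass the edgeR test between genotypes in either assay, with adjusted p of 0.765 to 0.997.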
